A study of Mus musculus with 6 samples.

Results

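The caspases are cysteine proteases that cut their substrates after aspartate and are made as inactive precursors. The 8 mouse caspase genes described here are Casp1, Casp2, Casp4, Casp6, Casp8, Casp9, Casp12 and Casp14, out of 22180 genes with a value. They were listed by name, and each was represented by the array feature with the highest mean over 6 arrays among features that the platform annotation gives a single gene symbol. The members were chosen by name with their knockout and wild type levels on these 6 arrays already known, so the genotype differences of these 8 genes are a description and carry no test.

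RNA came from mouse medulloblastomas, tumours of the cerebellum. In 3 knockout tumours the label gives the genotype Math1Cre::CrebbpFl/FlSmoM2Fl/+, and in 3 wild type tumours Math1Cre::SmoM2Fl/+. Both groups thus carried SmoM2, a constitutively active Smoothened that drives Sonic hedgehog signalling, and Cre under Math1 (Atoh1) control, named CreERT2 in the sample descriptions. All mice were injected with 1 mg tamoxifen at postnatal day 5, and tissue was taken at postnatal day 60 from animals with visible tumours. Crebbp, which encodes a lysine acetyltransferase, is therefore floxed in knockout mice, for deletion by a Cre that acts in the granule neuron lineage. Which cells of the tumour tissue lost or kept the gene was not measured. Each sample has an array of its own and is called a tumour here. Since the labels do not state separate animals or litters, the spread between arrays may be partly technical.

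Caspases fall into roles. Casp8, Casp9 and Casp2 are initiators of apoptosis, which are activated on the death receptor complex, on the apoptosome and on the PIDDosome. Casp6 is counted among the executioners, which cut structural proteins such as lamins. Casp1, Casp4 (also called caspase-11 in mouse) and Casp12 form the inflammatory group, and Casp14 acts in the terminal differentiation of the epidermis. Apoptosis shapes the granule neuron population of the developing cerebellum, and inflammatory caspases are best known from macrophages and microglia. The arrays measure transcripts and not cleavage or activity of the enzymes.

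The promoters of Casp6 and Casp4 are shown because these genes had the largest differences between genotypes in each direction. Both are RefSeq windows of the GRCm38.p6 build, from 250 bases before to 50 bases after the annotated start, at chr3:129901165-129901464 (plus strand) for Casp6 and at chr9:5308599-5308898 (plus strand) for Casp4. Capitals mark the GC box GGGCGG in the first and the NF-kB motif GGNNTTTCC in the second, on either strand.
Casp6: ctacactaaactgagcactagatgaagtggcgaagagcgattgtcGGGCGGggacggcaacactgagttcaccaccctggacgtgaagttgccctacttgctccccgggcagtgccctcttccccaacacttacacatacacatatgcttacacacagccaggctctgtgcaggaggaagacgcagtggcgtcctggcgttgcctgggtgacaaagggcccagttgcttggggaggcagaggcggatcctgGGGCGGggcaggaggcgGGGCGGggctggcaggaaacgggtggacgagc
Casp4: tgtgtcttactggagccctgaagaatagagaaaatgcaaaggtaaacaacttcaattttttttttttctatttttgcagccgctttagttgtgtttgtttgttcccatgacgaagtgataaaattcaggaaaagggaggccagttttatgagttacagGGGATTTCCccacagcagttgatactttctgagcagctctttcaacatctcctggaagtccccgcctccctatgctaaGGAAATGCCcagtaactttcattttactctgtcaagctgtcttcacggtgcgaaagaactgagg
The Casp6 window held 3 GC boxes and a GC content of 62.0%, against a median of 52.7% over 32851 promoters of the same length, of which 35.7% held the GC box. The Casp4 window held 2 NF-kB motifs, which begin 92 and 14 bases upstream of the start, and 5.82% of all promoters held that motif. These matches describe letters in the sequence and do not show binding. The motif list was put together after the caspase promoters had been read.

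All 8 caspases matched the promoter table, in 9 windows because Casp4 has 2 annotated starts. GC boxes were found in Casp2, Casp6 and Casp9, the genes with GC contents of 63.7%, 62.0% and 66.0%. Casp1, Casp4, Casp8 and Casp12 had windows of 41.0% to 48.0% GC and no GC box. Casp14, with 53.7% GC, had no GC box either. No caspase window held the cAMP response element TGACGTCA, which CREB binds (1.79% of all promoters), the GLI motif GACCACCCA (0.253%) or the interferon-stimulated element core GAAANNGAA (8.56%). The half-site TGACG, which the full element contains, was present in Casp4 alone among the caspases, in both of its windows, and in 20.8% of all promoters.

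The labels and the tissue were checked first. Crebbp had a log2 level of 11.26 ± 0.07 in knockout tumours and 11.76 ± 0.05 in wild type tumours (SD, n = 3 each). Its groups did not overlap, as in 19.6% of all genes. The difference of -0.50 (SE 0.09) did not pass over all genes (limma adjusted p = 0.0948). Which exons were deleted is not stated, and the feature may hold probes outside them. Xist was at 12.34 ± 0.10 in knockout and 5.44 ± 0.31 in wild type tumours (SD, n = 3 each), while the Y-linked Kdm5d was at 4.70 ± 0.09 in knockout and 9.34 ± 0.02 in wild type tumours (SD, n = 3 each), and Eif2s3y and Uty differed in the same direction as Kdm5d. The knockout arrays thus carried a female and the wild type arrays a male pattern, so sex and genotype cannot be told apart anywhere below. The tissue was checked on genes listed as granule neuron progenitor markers, whose specificity for progenitors was not tested. Of these, Atoh1 had log2 levels of 10.93 to 11.56 in knockout and 11.54 to 11.64 in wild type tumours. Of the 12 measured markers 9 had negative and 3 positive differences, with a median of -0.30. In limma 0 of them passed, and an unadjusted p under 0.05 was found for 7 lower and 2 higher, where the share over all genes was 13.8%. Their summed level on the linear scale was 23712 to 27375 in knockout tumours and 27521 to 31609 in wild type tumours, so the groups did not overlap. The members with the smallest p were Ccnd2, a cyclin (difference -0.69, SE 0.12, limma adjusted p = 0.0948), and Neurod1, a proneural factor (-1.14, SE 0.23, adjusted p = 0.121), while Mfap4 (2.35, SE 0.48) and Gli1 (0.30, SE 0.12) had positive differences. The part of these markers in the caspase values was not tested. The table holds no detection calls. Xist in wild type and the 3 Y-linked genes in knockout tumours gave 12 values from 4.31 to 5.74, which stand in for the signal of an absent transcript, although this background differs between features.

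Casp6 was higher in knockout tumours, and Casp8 had a higher mean there with overlapping groups. Casp4 and Casp1 had lower means in knockout tumours with overlapping groups, and Casp2, Casp9, Casp12 and Casp14 had overlapping groups and differences smaller than their SE. Differences were split evenly, 4 positive and 4 negative, with a median of -0.01 on the log2 scale against 0.0039 over all genes. Casp6 was the 1 caspase of 8 whose adjusted p in limma was under 0.05, where 0.207% of all genes were called, 0.126% as higher and 0.0812% as lower in knockout. It was also the 1 caspase whose groups did not overlap, where 19.6% of all genes were without overlap, 10.2% as higher and 9.43% as lower in knockout. Casp6 and Casp8 had an unadjusted p under 0.05, as did 13.8% of all genes. The 8 genes were listed with this contrast known, and nothing is read from these counts.

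**Figure D1:**
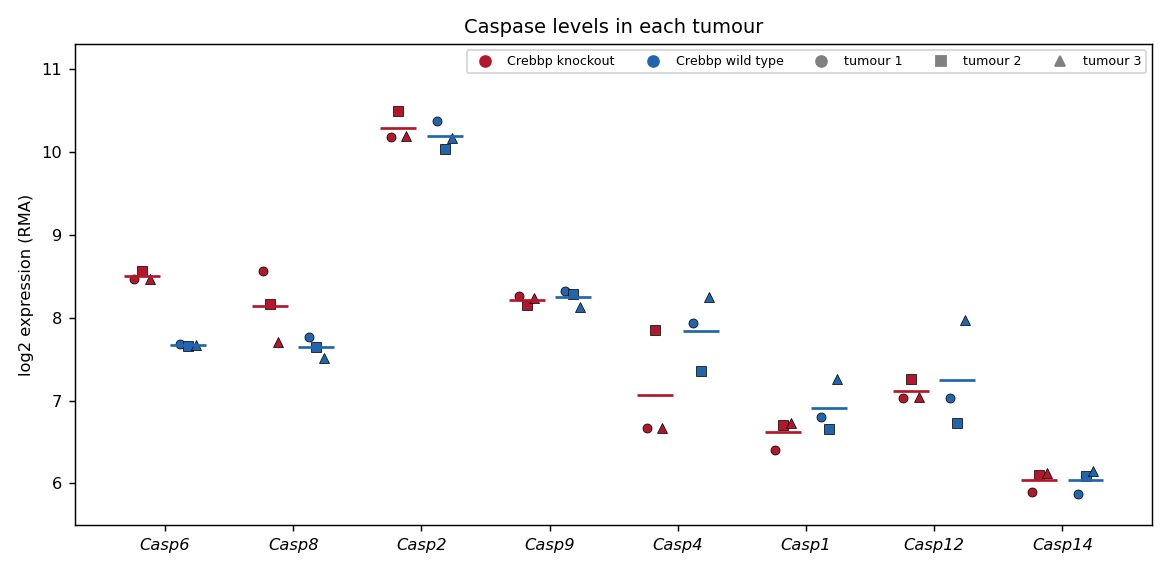
Log2 expression (RMA, vertical axis) of the 8 caspases in each tumour, with knockout tumours in red on the left and wild type tumours in blue on the right of each pair. Points are arrays, their shape gives the tumour number, and lines are group means. Casp6 separates the genotypes, with 8.47 to 8.56 in knockout against 7.66 to 7.68 in wild type tumours.

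Casp6 (feature 17402595, chromosome 3) encodes the executioner caspase that cuts lamin A. Its log2 levels were 8.47, 8.56 and 8.47 in knockout tumours, against 7.68, 7.66 and 7.67 in wild type tumours. Every knockout tumour lay above every wild type tumour, with a gap of 0.79 between the nearest values, and the arrays within a genotype lay within 0.09 of each other in knockout and 0.02 in wild type. The log2 difference was 0.83 (SE 0.08), a level 1.78 times that of wild type. In size it stood at the 98.9th percentile of all genes, and its pooled SD of 0.04 at the 1.66th percentile. Leaving out any single array kept the difference between 0.80 and 0.84, although the call over all genes was lost without knockout replicate 1, knockout replicate 3, wild type replicate 1 or wild type replicate 2.

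The nearest measured genes on either side of Casp6 had smaller differences of the opposite sign. Pla2g12a, a secreted phospholipase, had log2 levels of 7.65, 7.47 and 7.69 in knockout and 7.83, 7.81 and 7.63 in wild type tumours, a difference of -0.15 (SE 0.10, limma adjusted p = 0.562). Sec24b, a COPII coat component, had a difference of -0.12 (SE 0.09, adjusted p = 0.587), with overlapping groups. Over the 6 arrays, the genes most like Casp6 by Pearson correlation were Pygb, the brain glycogen phosphorylase (r = 0.998), and Ubfd1 (r = 0.997), the highest of 10552 brighter genes searched. Their own differences were smaller, 0.23 (SE 0.08) and 0.20 (SE 0.08). With 6 points that fall into 2 genotypes, this likeness largely restates the gap between the groups.

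Of the caspase substrates listed with it, lamin A, the gene Lmna, had log2 levels of 6.50, 6.59 and 6.58 in knockout and 6.71, 6.84 and 6.93 in wild type tumours. These groups did not overlap, and the difference of -0.27 (SE 0.09) had a limma adjusted p of 0.288. Lmnb1, the B-type lamin, was at 10.89, 10.94 and 10.81 in knockout and 11.41, 11.71 and 11.26 in wild type tumours, a difference of -0.58 (SE 0.13, adjusted p = 0.148). Of 13 measured substrates 0 passed in limma. Differences were negative in 9 and positive in 4, with a median of -0.15, and the 3 with an unadjusted p under 0.05 were all lower in knockout, against 13.8% of all genes under that p in either direction.

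Among the initiators, Casp8 (feature 17213213, chromosome 1), which starts apoptosis at death receptors and restrains necroptosis, had the widest spread. Its log2 levels were 8.56, 8.16 and 7.70 in knockout tumours, against 7.77, 7.64 and 7.52 in wild type tumours. Knockout replicates 1 and 2 lay above all wild type arrays, and knockout replicate 3 lay within their range. The difference was 0.50 (SE 0.20), and 0.29 without knockout replicate 1. Cflar, the neighbour of Casp8 on chromosome 1 and an inhibitor of its activation, was at 8.20, 8.11 and 7.99 in knockout and 7.78, 7.92 and 7.90 in wild type tumours. Its groups did not overlap, with a difference of 0.23 (SE 0.10, limma adjusted p = 0.34). Trak2, the nearest measured gene on the other side, had a difference of 0.09 (SE 0.11, adjusted p = 0.783).

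Of 15 measured genes of the death receptor complex, 8 had positive and 7 negative differences, with a median of 0.03, and 0 passed in limma with 1 unadjusted p under 0.05 in each direction, those of Cflar and Tnfrsf21 (13.8% of all genes in either direction). Tnfrsf21, also called death receptor 6, had log2 levels of 9.08, 9.30 and 9.07 in knockout and 9.83, 9.98 and 9.67 in wild type tumours. The highest knockout value was below the lowest wild type value, and the difference of -0.68 (SE 0.12) had an adjusted p of 0.0911, which became 0.0333 when the variance model had an intensity trend and a robust prior. The adaptor Fadd, which recruits Casp8, had a difference of 0.13 (SE 0.09), and the necroptosis genes Ripk3 and Mlkl had 0.05 (SE 0.13) and -0.14 (SE 0.13), all with overlapping groups.

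Casp9 (feature 17421120, chromosome 4), the apoptosome initiator, had log2 levels of 8.26, 8.15 and 8.24 in knockout tumours, against 8.32, 8.28 and 8.13 in wild type tumours. The groups overlapped almost fully, with a difference of -0.03 and a 95% interval from -0.24 to 0.19. Apaf1, its scaffold, differed by -0.07 (SE 0.11, limma adjusted p = 0.822). Of 9 measured apoptosome and mitochondrial genes 0 passed, and the unadjusted p was under 0.05 for Diablo, an antagonist of inhibitor of apoptosis proteins, at 0.21 (SE 0.08, adjusted p = 0.34), and for the BCL2 relative Bok at -0.29 (SE 0.11, adjusted p = 0.325). Among 6 genes for inhibitor of apoptosis proteins 0 passed in limma and unadjusted p values under 0.05 numbered 0, and the smallest p values belonged to Birc3 at -0.15 (SE 0.12) and Birc5 at -0.10 (SE 0.11). For both lists, the share of all genes with an unadjusted p under 0.05 was 13.8%.

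Casp2 (feature 17457892, chromosome 6), an initiator linked to DNA damage and centrosome number, had log2 levels of 10.17, 10.49 and 10.19 in knockout tumours, against 10.37, 10.04 and 10.17 in wild type tumours. Knockout replicate 2 was the highest and wild type replicate 2 the lowest, and the others interleaved. The difference was 0.09, with a 95% interval from -0.21 to 0.39. Of its 3 measured PIDDosome partners 0 passed in limma, and Cradd was the 1 at an unadjusted p under 0.05 (13.8% of all genes). Cradd, the adaptor, was at 8.18, 8.30 and 8.21 in knockout and 7.97, 7.95 and 8.10 in wild type tumours (difference 0.22, SE 0.09, adjusted p = 0.336), while Pidd1, the scaffold, was at 8.37, 8.17 and 8.24 in knockout and 8.38, 8.60 and 8.44 in wild type tumours (difference -0.21, SE 0.10, adjusted p = 0.412). Mdm2 had overlapping groups and a difference of 0.07 (SE 0.11).

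**Figure D2:**
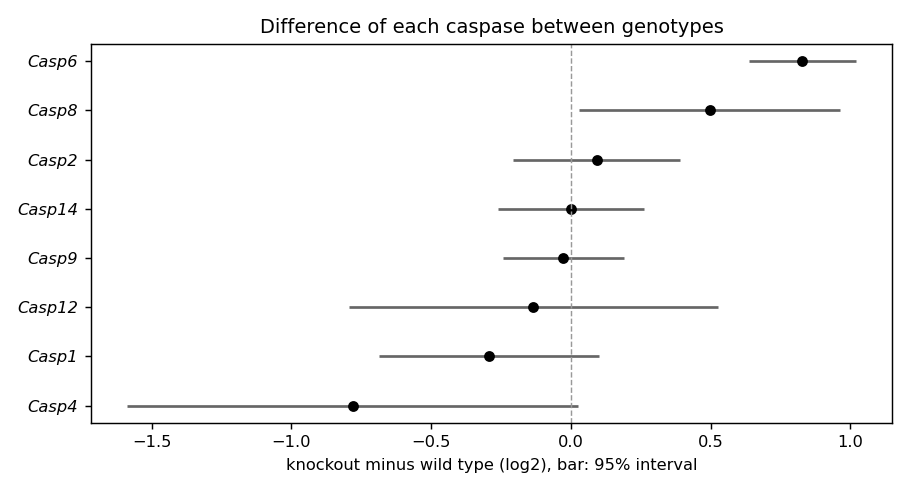
Knockout minus wild type difference on the log2 scale (horizontal axis) for each caspase, with the limma 95% interval as a bar. Casp6 at 0.83 has the largest positive difference and Casp4 at -0.78 the largest negative one, with an interval that reaches 0.03.

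The 3 inflammatory caspases had lower means in knockout tumours, overlapping groups, and pooled SDs of 0.26 to 0.58 against a median of 0.144 over all genes. Casp4 (feature 17514435, chromosome 9), which responds to bacterial lipopolysaccharide in the cytosol, had log2 levels of 6.67, 7.85 and 6.67 in knockout tumours, against 7.93, 7.35 and 8.25 in wild type tumours. Knockout replicates 1 and 3 were well below every wild type array, and knockout replicate 2 lay among them. The difference was -0.78 (SE 0.35), and -1.17 without knockout replicate 2. Its pooled SD of 0.58 stood at the 99.2nd percentile of all genes.

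Casp1 (feature 17514424, chromosome 9), which matures interleukin-1 beta and interleukin-18, had log2 levels of 6.41, 6.71 and 6.73 in knockout tumours, against 6.80, 6.66 and 7.26 in wild type tumours. Wild type replicate 3 was the highest, wild type replicate 2 fell within the knockout range, and the difference was -0.29 (SE 0.17), or -0.12 without wild type replicate 3. Casp12 (feature 17514447, chromosome 9), described in mouse as a caspase of the endoplasmic reticulum, had log2 levels of 7.03, 7.26 and 7.04 in knockout tumours, against 7.03, 6.73 and 7.97 in wild type tumours. Wild type replicates 2 and 3 were the lowest and the highest of all 6 arrays, and the difference of -0.13 (SE 0.28) became 0.23 without wild type replicate 3.

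Casp1, Casp4 and Casp12 lie next to each other on chromosome 9, between Gria4 and Pdgfd. Within each of the 3 genes, wild type replicate 3 was the highest of all arrays and wild type replicate 2 the lowest of the wild type arrays. Of the flanking genes, Gria4, a glutamate receptor subunit, had a difference of 0.01 (SE 0.08) and Pdgfd, a growth factor, one of -0.0023 (SE 0.11). The genes most like Casp4 over the 6 arrays were Rasl11a (r = 0.987) and the BMP antagonist Chrdl1 (r = 0.986), and those most like Casp12 were Nucb2 (r = 0.985) and Usp34 (r = 0.985), from the same search of 10552 genes. These correlations over 6 arrays were the highest of many and are a description only.

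**Figure D3:**
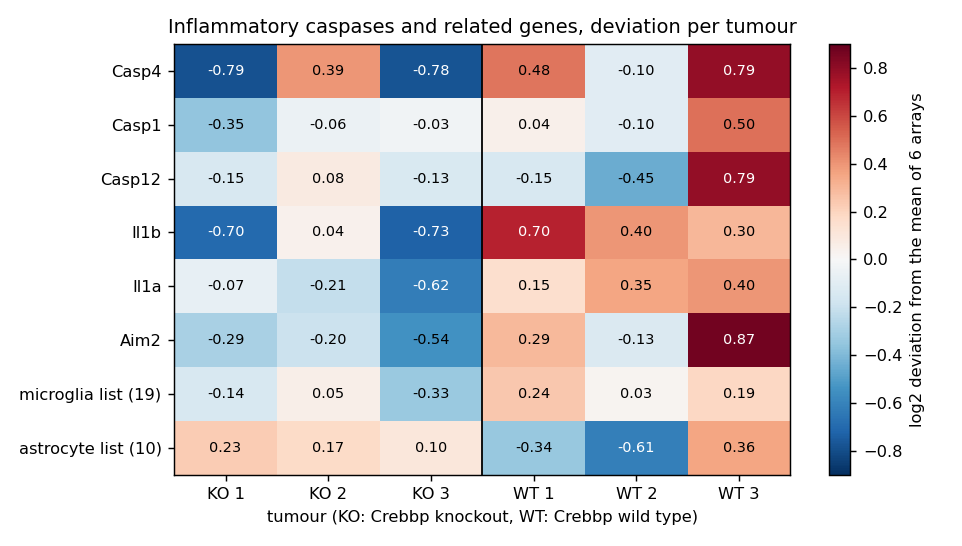
Log2 deviation from the mean of 6 arrays (colour and number) for the inflammatory caspases, for 3 genes that act with them and for the median over 2 marker lists, with knockout tumours left and wild type tumours right. Casp4 in knockout replicate 2 (0.39) lies with the wild type tumours, and wild type replicate 3 is the highest array for Casp1, Casp4 and Casp12.

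Genes that act with the inflammatory caspases were examined next. Il1b, the main cytokine substrate of caspase-1, had log2 levels of 6.46, 7.20 and 6.44 in knockout tumours, against 7.86, 7.56 and 7.47 in wild type tumours. Every knockout value lay below every wild type value, and knockout replicate 2 was the nearest, as for Casp4. The difference was -0.93 (SE 0.21, limma adjusted p = 0.153), and it passed without knockout replicate 2 (-1.18, adjusted p = 0.0307). Il1a, the related cytokine, was at 7.07, 6.93 and 6.53 in knockout and 7.30, 7.50 and 7.54 in wild type tumours, a difference of -0.60 (SE 0.15, adjusted p = 0.182). The DNA sensor Aim2 was at 7.12, 7.21 and 6.87 in knockout and 7.70, 7.28 and 8.28 in wild type tumours (difference -0.69, SE 0.23, adjusted p = 0.276).

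Other inflammasome genes differed less. The adaptor Pycard differed by 0.12 (SE 0.10), the pore former Gsdmd by -0.29 (SE 0.16), Il18 by 0.13 (SE 0.16) and the sensor Nlrp3 by -0.17 (SE 0.16). Of 19 measured members 0 passed in limma, 11 had negative and 8 positive differences with a median of -0.12, and 5 had an unadjusted p under 0.05, 4 lower and 1 higher, against 13.8% of all genes. The 1 higher was Card19, at 8.73, 8.68 and 8.93 in knockout and 8.47, 8.34 and 8.44 in wild type tumours. Its groups did not overlap, and its difference was 0.36 (SE 0.10, limma adjusted p = 0.198). In 5 of the 19, among them Nlrp1a and Mefv, no array exceeded the highest value of the absent sex-linked genes. The genes named here beyond Il1a and Il1b were chosen after their values were seen.

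Microglia and macrophage markers were also lower on average in knockout tumours, and their part in these differences was not tested. Of 19 measured markers 17 had negative differences, 9 had an unadjusted p under 0.05, all of them lower in knockout, against 13.8% of all genes in either direction, and 0 passed in limma. The median was -0.29. Their summed level on the linear scale was 10644 to 14082 in knockout tumours and 14309 to 16490 in wild type tumours, so the groups did not overlap, and none of the markers lay at the level of absent genes. The Fc receptor gene Fcgr3 differed by -0.79 (SE 0.14, adjusted p = 0.105) and the protease gene Ctss by -0.57 (SE 0.11, adjusted p = 0.121), whereas Tyrobp, Fcer1g and Cd68 differed by -0.02, 0.06 and 0.11. The median deviation of the list was -0.14, 0.05 and -0.33 in knockout replicates 1 to 3 and 0.24, 0.03 and 0.19 in wild type replicates 1 to 3. In tumour tissue, fewer cells of a type and less RNA per cell cannot be told apart.

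Astrocyte and Bergmann glia markers had 8 of 10 differences positive and a median of 0.42, and 0 passed in limma, with 3 at an unadjusted p under 0.05 (13.8% of all genes). Aldoc, a glycolytic enzyme of these cells, differed by 1.47 (SE 0.41, adjusted p = 0.201) and the connexin Gjb6 by 0.57 (SE 0.24, adjusted p = 0.343). Their summed level was 20758 to 21683 in knockout and 12128 to 23420 in wild type tumours, and wild type replicate 3, the array highest for Casp1, Casp4 and Casp12, was also the highest of the 6 in this sum. Wild type replicate 2, the lowest wild type array for those caspases, was the lowest of the 6.

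The 3 measured Purkinje cell markers set knockout replicate 2 apart from the other knockout tumours, as Casp4 did, but in the opposite direction. Their median deviation was 1.00, -0.39 and 1.26 in knockout replicates 1 to 3 and -1.41, -0.70 and 0.06 in wild type replicates 1 to 3, where Casp4 deviated by -0.79, 0.39 and -0.78 in the knockout tumours and by 0.48, -0.10 and 0.79 in the wild type tumours. Their summed level was 958 to 3415 in knockout and 448 to 1278 in wild type tumours, with a median difference of 1.16. The calcium buffer Calb1 differed by 2.42 (SE 0.80, limma adjusted p = 0.262) and Car8 by 1.16 (SE 0.43, adjusted p = 0.302), and the groups overlapped in each. The myelin genes Mbp, Mog, Mag, Mobp and Cnp were likewise lower in knockout replicate 2 than in the other knockout tumours. The keratin gene Krt10 was also lowest there among the knockout tumours. Sox10, Cspg4, Krt14 and Krt1, from the same marker lists, went the other way and were highest there among the knockout tumours.

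Other cell types were examined in the same way. Lymphocyte markers had a median of -0.09 over 9 measured genes, and their summed level of 657 to 676 in knockout tumours lay below the 699 to 761 of wild type tumours. Cd3e, Cd3d, Cd2, Cd8a and Klrb1c had group means of 5.70 to 6.18, where absent sex-linked genes reached 5.74. The sum may thus be partly background, and it does not show a difference in lymphocytes. Cd79a, a B cell receptor component, differed by -0.32 (SE 0.11, limma adjusted p = 0.254) and the T cell coreceptor Cd8a by -0.29 (SE 0.15, adjusted p = 0.437). Oligodendrocyte lineage markers had a median of -0.17 over 9 genes, with Pdgfra at -0.45 (SE 0.13, adjusted p = 0.207) and Sox10 at -0.69 (SE 0.23, adjusted p = 0.258). Differences were negative in 7 of these genes and positive in 2, with Mobp at 0.91 (SE 0.41, adjusted p = 0.382). Their summed level was 6424 to 6703 in knockout and 7541 to 8896 in wild type tumours. Pdgfra, the brightest of these genes, with means of 11.69 in knockout and 12.14 in wild type tumours, weighs most in this sum. It was the 1 gene of the list whose groups did not overlap, as in 19.6% of all genes. The 10 markers of endothelium and pericytes had a median of 0.04, with Tek at 0.50 (SE 0.13, adjusted p = 0.184) and Abcc9 at -0.37 (SE 0.12, adjusted p = 0.262), and a summed level of 2850 to 3844 in knockout and 2934 to 3322 in wild type tumours. Over all marker lists, 0 of 78 measured genes passed in limma, and the unadjusted p was under 0.05 in 30 (38.5%), 9 higher and 21 lower in knockout, against 13.8% of all genes. The part of any of these markers in the caspase values was not tested.

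Casp14 (feature 17242548, chromosome 10), the epidermal caspase, was the gene with the smallest difference. Its log2 levels were 5.90, 6.10 and 6.12 in knockout tumours, against 5.87, 6.09 and 6.15 in wild type tumours. The groups overlapped fully, and the difference of 0.001 had a 95% interval from -0.26 to 0.26. All 6 values lay just above the range of absent sex-linked genes, so this table does not show whether Casp14 was expressed. Of 8 epidermal partners, all 8 had negative differences with a median of -0.20, 0 passed in limma, and the 1 unadjusted p under 0.05 (13.8% of all genes) was that of the transglutaminase Tgm1 (difference -0.68, SE 0.20, adjusted p = 0.221). The cornified envelope gene Lor differed by -0.32 (SE 0.15, adjusted p = 0.409). Flg, the gene of the filaggrin precursor that Casp14 helps process, differed by -0.06 (SE 0.13). The partners Flg2, Lor, Ivl and Sprr1b had group means of 5.30 to 6.24, near the 5.74 that absent sex-linked genes reached. Their differences may thus be partly background. The keratinocyte markers had a median of -0.03 over 6 measured genes, with Trp63 at 0.19 (SE 0.11, limma adjusted p = 0.483) and Krt10 at -0.89 (SE 0.59, adjusted p = 0.56), and a summed level of 561 to 1625 in knockout and 1304 to 1963 in wild type tumours. Krt10 was the largest part of this sum, at 10.02, 7.81 and 10.31 in knockout and 9.97, 10.68 and 10.15 in wild type tumours. The other markers had group means of 4.98 to 6.65, where absent sex-linked genes reached 5.74.

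**Figure D4:**
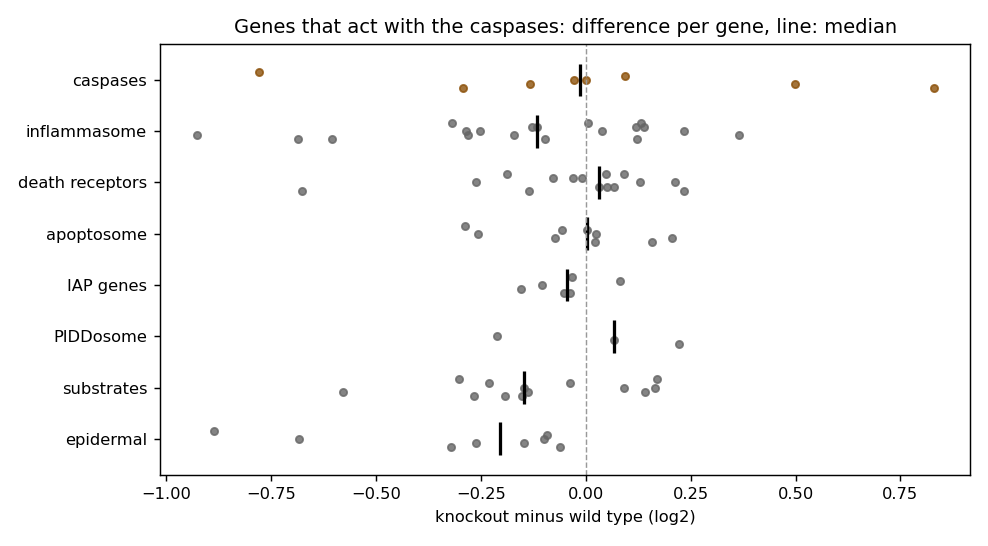
Knockout minus wild type difference on the log2 scale (horizontal axis) for each caspase and for each measured gene of 7 lists that act with them, with the median of each list as a line. The list medians lie between -0.20 and 0.07, and Il1b at -0.93 and Krt10 at -0.89 are the lowest points.

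Over the 7 lists of genes that act with caspases, 73 of 77 genes had a value and 0 passed an adjusted p of 0.05 in limma, against 0.207% of all genes. An unadjusted p under 0.05 was found for 14 of the 73 (19.2%), 4 higher and 10 lower in knockout, where the share over all genes was 13.8%. Groups did not overlap in 25 of the 73 (34.2%), against 19.6% of all genes. These lists were made with earlier results of these arrays known, and the shares are a description.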

How the data were processed

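RNA from 6 tumour samples was hybridised to Affymetrix whole-transcript arrays. The deposited values are on a log2 scale and come from RMA as run by oligo, per the submitters' processing notes. Neither versions nor a genome build are stated there. RMA subtracts background, equalises array distributions and summarises probes, which compresses changes of dim features and removes shifts shared by most genes. The table held 41345 features, with array medians of 6.91 to 7.00. Of these, 23521 had 1 symbol in the platform annotation, 1814 several and 16010 none, which left 22180 genes after keeping the feature with the highest mean of each gene. Each caspase had 1 feature. RefSeq (GRCm38.p6) gave chromosomes and gene order, and 99.2% of single-symbol features matched it.

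Two-sided tests came from lmFit and eBayes (no trend) of limma, version 3.58.1, under R 4.3.3. P-values were adjusted by Benjamini-Hochberg across the 22180 genes, and 0.05 was the threshold. All differences are knockout minus wild type. The number of arrays limits the precision. On simulated arrays with 200 of 22180 genes changed, 21.5% of changes of 0.5, 68.4% of changes of 1 and 94.8% of changes of 2 on the log2 scale were recovered, and 5.55% of calls were false. The caspases and all gene lists were chosen with earlier results of these data known. Named genes are the caspases, label checks, list members that passed (where none did, the 2 of lowest p), chromosome neighbours, and the 2 genes most correlated with each of the 3 most variable caspases among genes brighter than the median. Other list members were named after their values were seen. Alternatives covered array scaling, dropping dim genes, an intensity trend, array weights, several features per gene, a replicate block and leaving out each array.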

Additional observations from a re-analysis of the deposited data

How the results depend on the processing

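Over 12 alternatives the difference of Casp6 stayed between 0.80 and 0.84, and the number of caspases past the threshold, 1 with all arrays, was 0 with a replicate block and 0 to 1 when single arrays were left out. It was 0 without knockout replicate 1, knockout replicate 3, wild type replicate 1 or wild type replicate 2. The number of genes past the threshold, 46, was 137 with an intensity trend and robust prior, 12 with a replicate block and 4 to 128 when single arrays were left out. With the trend and robust prior 1 gene each passed among death receptor genes (Tnfrsf21), microglia markers (Ctss) and progenitor markers (Ccnd2), where 0 passed with all arrays and no trend or robust prior. Leaving out single arrays gave 0 to 1 inflammasome gene, 0 to 1 astrocyte, 0 to 1 oligodendrocyte (Mobp, higher in knockout), 0 to 1 Purkinje cell and 0 to 2 progenitor markers. Fewer arrays enter those fits, and the cause of the other changes was not tested. The median over the caspases, -0.01, ranged from -0.04 to 0.07, and the differences of Casp2, Casp9, Casp12 and Casp14 took either sign when single arrays were left out. Same-numbered tumours of the 2 genotypes had correlations of their deviations over genes of -0.03, 0.05 and 0.10, and differently numbered ones -0.14 to 0.11. With 3 arrays per genotype these values do not settle whether the numbers pair the samples. The labels state no pairing, and the replicate block, in which Casp6 had a limma adjusted p of 0.0809, is given here only. The median over the caspases was not computed without the dimmest 50% of genes, which leaves out part of the list.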
